A study of Danio rerio with 14 samples.

Results

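The genes clstn3, ush1c, phka1b and tmppe were examined in whole zebrafish embryos mutant for mttp and in their siblings, by RNA sequencing at 24 and 48 hours post fertilization (hpf). They are 4 of the 36109 genes in the count table and of the 24424 genes tested, and each has 1 row. They were chosen by their measured values, for a mutant effect that was more negative at 48 than at 24 hpf after higher levels in the mutants at 24 hpf. Their mutant effects and the difference between these effects are therefore given as a description, and their calls in these comparisons are no result. Mutants carried the label mttp knockout, made with CRISPR/Cas9, and siblings carried the label sib and no treatment. The groups were 4 mutant and 4 sibling libraries at 24 hpf, and 3 mutant and 3 sibling libraries at 48 hpf. The sources used here name neither the allele, nor the siblings' own genotypes, nor how many embryos made up a library. In whole embryos, fewer cells that use a gene and less RNA of it per cell cannot be told apart.

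Microsomal triglyceride transfer protein, the product of mttp, lipidates apolipoprotein B, a step by which the yolk of the embryo exports its fat in lipoproteins. Calsyntenin 3, the product of clstn3, is a membrane protein of the cadherin superfamily that acts at synapses. In mice, a separate product of the same locus is made in fat cells and acts on their lipid droplets. Harmonin, the product of ush1c, is a PDZ scaffold that anchors the tip link in hair cells and links protocadherins in the microvilli of the gut, and loss of the human gene causes Usher syndrome. The gene phka1b encodes an alpha subunit of phosphorylase kinase, the calcium-dependent kinase that switches on glycogen breakdown, and the mammalian gene PHKA1 is the form of skeletal muscle. The gene tmppe encodes a transmembrane protein with a metallophosphoesterase domain and its role is little known.

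The targeted gene was lower in all mutant libraries than in all siblings of the same age. In 24 hpf embryos mttp averaged 9.68 ± 1.51 CPM (counts adjusted for library size and TMM factor; SD, n = 4) in mutants and 71.2 ± 5.77 CPM (n = 4) in siblings. At 48 hpf it averaged 8.40 ± 2.703 CPM (n = 3) in mutants and 29.4 ± 9.62 CPM (n = 3) in siblings. Library totals ranged from 29422983 to 46534187 counts. Sibling replicate 3 at 48 hpf was the deepest library and had the lowest share of mitochondrial counts, 0.696%. Sibling replicate 2 at 24 hpf was next at 0.847%, against 1.27% to 1.97% in the other 12 libraries. For some results that rest on either library, values without it are given as well. The mttp means and the summed levels of gene lists are given with both libraries only.

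The level of clstn3 was high in 24 hpf mutants and low in 24 hpf siblings. It measured 152, 94.0, 119 and 93.1 CPM in the 4 mutant libraries at 24 hpf, against 8.01, 6.39, 9.84 and 7.42 CPM in the sibling libraries. Every mutant library lay above every sibling library, and the group means stood 14.5-fold apart. At 48 hpf it measured 57.3, 52.5 and 59.1 CPM in mutants, against 73.9, 67.5 and 54.5 CPM in siblings. Here the groups overlapped, because sibling replicate 3 lay among the mutants; the 2 other siblings were above all 3 mutants. The log2 fold change of mutants against siblings was 3.85 ± 0.17 (SE of the fit) at 24 hpf and -0.21 ± 0.17 at 48 hpf, or -0.33 at 48 hpf without sibling replicate 3. The order of the group means was siblings at 24 hpf, mutants at 48 hpf, siblings at 48 hpf and mutants at 24 hpf, and the middle pair did not differ beyond their spread.

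The level of ush1c was higher in the mutants at both stages. It measured 9.66, 11.7, 6.29 and 7.82 CPM in mutants at 24 hpf, against 0.572, 0.473, 0.248 and 0.700 CPM in siblings. The sibling values rest on only 8 to 23 counts per library, against 239 to 401 counts in mutants. At 48 hpf it measured 8.38, 6.09 and 5.72 CPM in mutants, against 1.49, 1.33 and 3.90 CPM in siblings. Mutants and siblings did not overlap at either stage, so for this gene the excess in mutants was smaller at 48 hpf and not lost. Its log2 fold change was 4.14 ± 0.38 at 24 hpf and 1.57 ± 0.38 at 48 hpf. The later value depended on the deepest library: without sibling replicate 3 it was 2.25, and the difference between stages (48 minus 24 hpf) was -1.89, against -2.57 with all libraries. The order of the means was siblings at 24 hpf, siblings at 48 hpf, mutants at 48 hpf and mutants at 24 hpf, and the libraries of both mutant groups overlapped.

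For phka1b the mutant effect changed direction between stages. It measured 0.834, 1.05, 1.86 and 1.27 CPM in mutants at 24 hpf, against 0.318, 0.118, 0.434 and 0.547 CPM in siblings. These are low levels, from 26 to 72 counts per library in mutants and from 4 to 18 in siblings. At 48 hpf it measured 2.73, 2.99 and 3.55 CPM in mutants, against 6.80, 6.37 and 5.78 CPM in siblings. The mutants lay above all siblings at 24 hpf and below all siblings at 48 hpf. The log2 fold change was 1.82 ± 0.37 at 24 hpf and -1.03 ± 0.37 at 48 hpf. Leaving out the 2 libraries of low mitochondrial share gave 1.55 and -1.12. The libraries of the 4 groups did not overlap, and the groups ran from low to high in the order siblings and mutants at 24 hpf, then mutants and siblings at 48 hpf.

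For tmppe the groups stood apart at 24 hpf and overlapped at 48 hpf. It measured 33.2, 21.0, 21.9 and 18.6 CPM in mutants at 24 hpf, against 4.19, 3.37, 2.79 and 2.98 CPM in siblings. At 48 hpf it measured 5.92, 7.04 and 5.36 CPM in mutants, against 5.25, 5.43 and 6.72 CPM in siblings. The means of the 48 hpf groups differed by less than the spread between replicates. The log2 fold change was 2.83 ± 0.20 at 24 hpf and 0.07 ± 0.22 at 48 hpf. The later value was -0.03 without mutant replicate 2 and 0.19 without sibling replicate 3. From low to high the means were siblings at 24 hpf, siblings and mutants at 48 hpf, and mutants at 24 hpf.

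**Figure D1:**
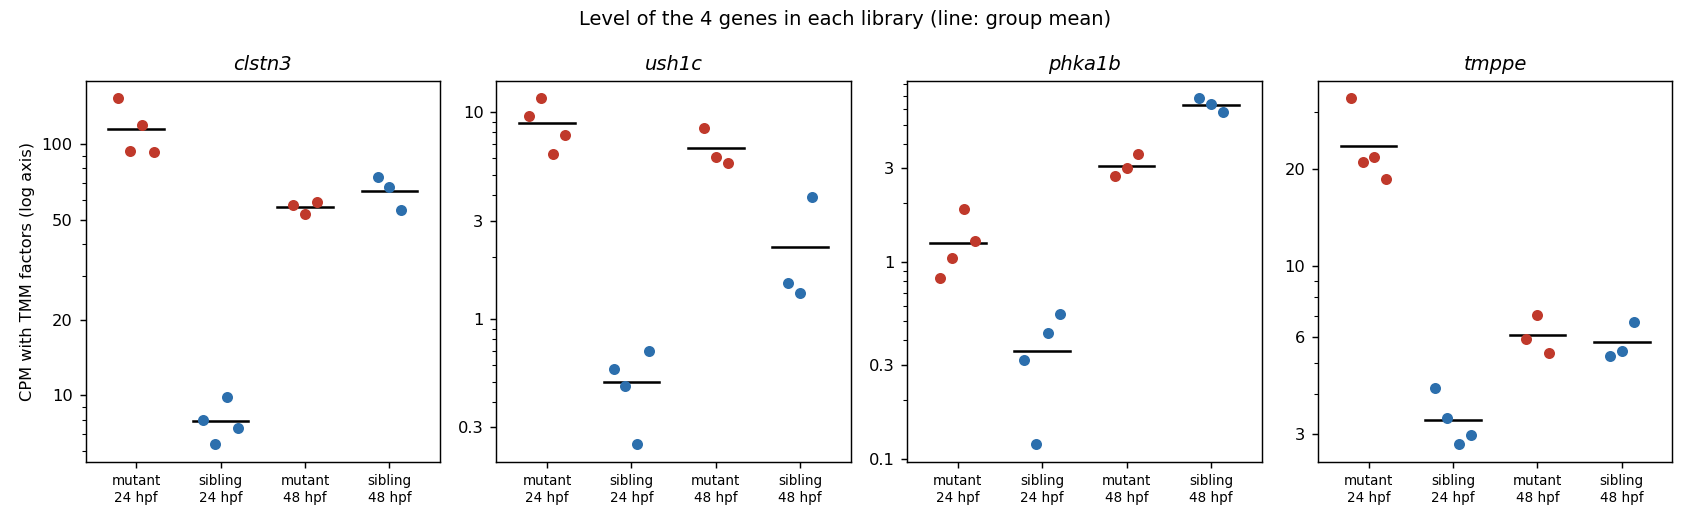
Level of clstn3, ush1c, phka1b and tmppe in each library, in CPM with TMM factors on a log axis; red points are mutants, blue points siblings and black lines group means. Mutants lie above siblings at 24 hpf in all 4 panels, whereas at 48 hpf they are above for ush1c, below for phka1b and overlap for clstn3 and tmppe.

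The differences between stages (48 minus 24 hpf), on which the choice rested, were -4.07 ± 0.24 for clstn3, -2.85 ± 0.53 for phka1b, -2.75 ± 0.29 for tmppe and -2.57 ± 0.53 for ush1c on the log2 scale. All 4 genes were called lower for this difference, as were 0.737% of genes tested (2.43% were called higher, 3.17% in all), at an adjusted p under 0.05 from edgeR's quasi-likelihood test with Benjamini-Hochberg adjustment. All 4 were called higher at 24 hpf, as were 1.50% of genes tested, whereas 2.33% were called lower. At 48 hpf only ush1c was called, higher, where 4.26% of genes were called higher and 1.80% lower, 6.06% in all. These counts follow from the choice and are no result. At 24 hpf, 5.0% of genes tested had every mutant library above every sibling library, and 8.59% the reverse. At 48 hpf this held for 12.0%, ush1c among them, and the reverse for 10.6%, phka1b among them. The switch seen for phka1b, above at 24 hpf and below at 48 hpf with no overlap at either stage, occurred in 63 genes, or 0.258%. Ranked from the highest log2 fold change at 24 hpf downwards, ush1c was 29th and clstn3 37th, and tmppe and phka1b held ranks 93 and 257.

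**Figure D2:**
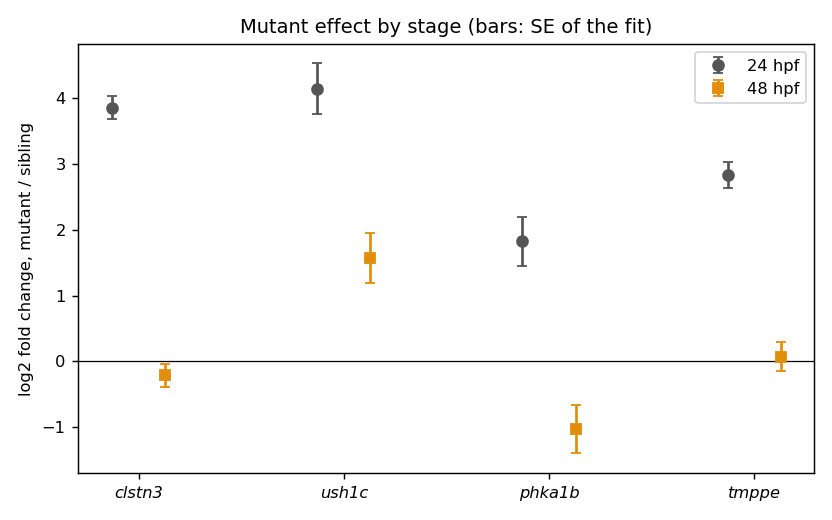
Log2 fold change of mutants against siblings for the 4 genes at 24 hpf (grey circles) and 48 hpf (orange squares); bars are the SE of the fit. All values at 24 hpf lie between 1.82 and 4.14, and the values at 48 hpf lie between -1.03 and 1.57.

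**Figure D3:**
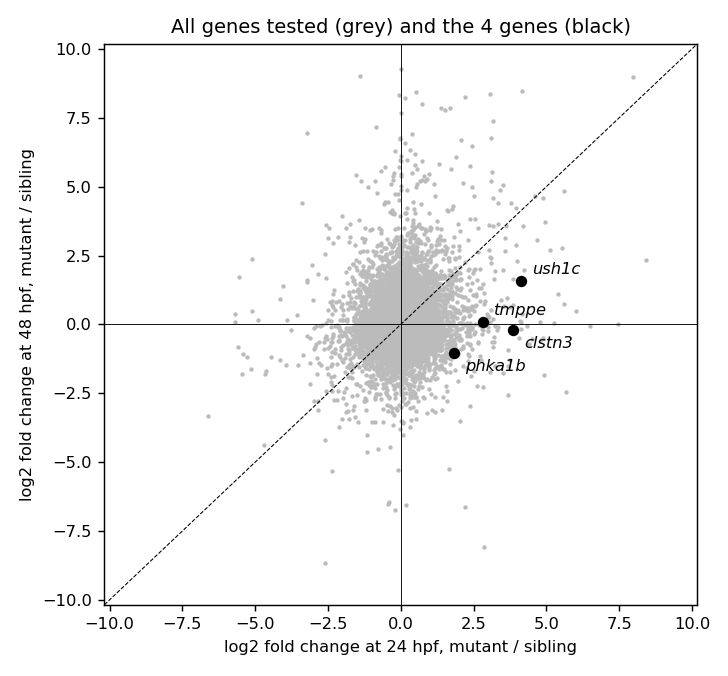
Log2 fold change of mutants against siblings at 24 hpf (x axis) and 48 hpf (y axis) for the 24424 genes tested (grey) and the 4 genes (black); the dashed line marks equal effects. The 4 genes lie right of the centre and below the dashed line, ush1c alone clearly above 0 on the y axis.

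Other genes shared the top of the ranking by this difference. Among 69 named genes whose average log2 CPM reached 1, with a called decrease of the mutant effect and all 24 hpf mutants above all siblings, clstn3 ranked first. The genes phka1b, tmppe and ush1c held ranks 3, 4 and 5. The second was FAM135B (-2.95), and mafga, a small Maf transcription factor, followed at -2.45, chmp2ba, of the ESCRT-III membrane scission complex, at -2.21 and hsp90b1, a chaperone of the endoplasmic reticulum, at -1.89. Of the 69 genes, 50 had a log2 fold change below 0 at 48 hpf, 30 had all mutants below all siblings there, and 15 still had all mutants above all siblings. Over all genes tested, 10.6% had all mutants below and 12.0% all mutants above at 48 hpf. Choosing genes by a called decrease favours low values at 48 hpf, so these counts are a description and no result. Among the 69 genes, ush1c belonged to the 15 and phka1b to the 30, and clstn3 and tmppe belonged to neither.

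The stage change averaged over both genotypes, (mutants + siblings)/2 at 48 hpf against the same at 24 hpf, was not used by the choice. With as many mutants as siblings in a stage it is at right angles to both mutant effects, exactly so where both groups are equally precise and nearly so for the low sibling counts of ush1c and phka1b at 24 hpf. By edgeR's quasi-likelihood test phka1b rose by 2.72 ± 0.26 on the log2 scale (adjusted p = 1.02e-07) and clstn3 by 1.01 ± 0.12 (adjusted p = 1.02e-06). The gene ush1c rose by 0.89 ± 0.26 (adjusted p = 0.00713), and tmppe fell by 0.58 ± 0.15 (adjusted p = 0.00243). A call was common in this comparison, made for 60.2% of genes tested, 30.2% higher and 30.0% lower. The rise of ush1c was 0.55 without sibling replicate 3 at 48 hpf (adjusted p = 0.0362), with adjusted p-values of 0.00175 to 0.0450 under the alternatives. Each stage has its own batch label, so the effects of stage and of batch cannot be told apart.

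The averages hid unlike paths in the genotypes, given here as a description. In mutants clstn3 changed by -1.02 ± 0.17 on the log2 scale between stages, against 3.04 ± 0.17 in siblings, whose 48 hpf mean was 8.25 times their 24 hpf mean. The sibling mean of clstn3 at 48 hpf was 0.570 of the mutant mean at 24 hpf. For tmppe the change was -1.96 ± 0.21 in mutants and 0.80 ± 0.21 in siblings, so the 2 genotypes met mainly through the lower mutant level. For ush1c it was -0.40 ± 0.34 in mutants and 2.18 ± 0.40 in siblings. For phka1b both were positive, 1.29 ± 0.35 in mutants and 4.14 ± 0.39 in siblings.

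**Figure D4:**
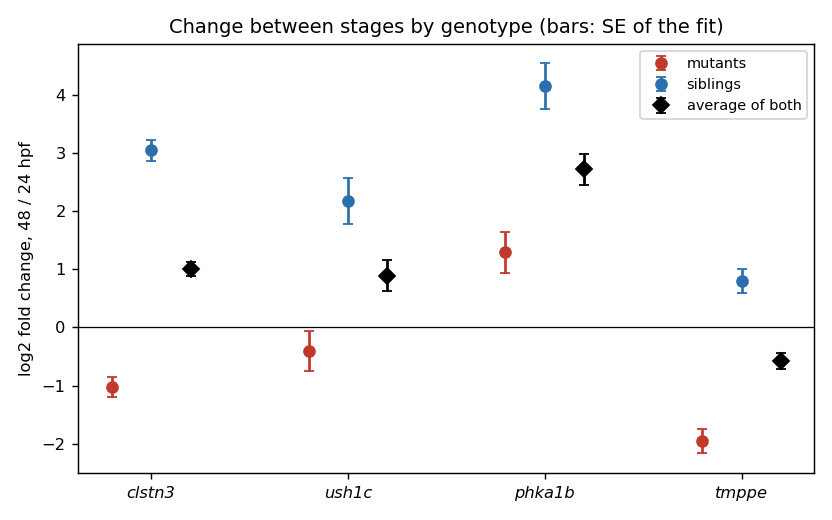
Log2 fold change of 48 against 24 hpf for the 4 genes in mutants (red), in siblings (blue) and averaged over both (black diamonds); bars are the SE of the fit. The sibling value is positive for all 4 genes, and the mutant value is positive for phka1b alone.

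Likeness of profiles was measured as the root mean square difference of log2 CPM over the 14 libraries, each gene centred on its own mean, so that 0 is an identical profile. Among named genes whose average log2 CPM reached 1, FAM135B was nearest to clstn3 (0.50), followed by chmp2ba (0.71), mafga (0.78) and hsp90b1 (0.81), against a median of 1.61 over all genes. FAM135B averaged 12.9 CPM in mutants and 1.88 CPM in siblings at 24 hpf, and 7.08 CPM in mutants and 7.95 CPM in siblings at 48 hpf. Nearest to ush1c (median of all genes 1.79) were pmt, which methylates phosphoethanolamine (0.59), ociad2 (0.59), the membrane transporter abcc12 (0.80) and the interferon regulatory factor irf3 (0.86). Like ush1c, all 4 had a positive log2 fold change at both stages. Genes nearest to a member share its mutant effects by this choice. The effects of all nearest genes, here and below, are therefore a description and no result.

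Nearest to phka1b (median 1.65) were CEP170B (1 of many) (0.55), the sodium channel subunit scn4ba (0.56), the histone deacetylase hdac11 (0.58) and the glutamate receptor subunit grin2aa (0.60). Their log2 fold changes lay between 0.67 and 1.17 at 24 hpf and between -0.55 and -0.43 at 48 hpf. Nearest to tmppe (median 1.17) were 4 genes of protein folding in the endoplasmic reticulum, hsp90b1 (0.41), pdia4 (0.41), dnajc3a (0.46) and hyou1 (0.47). These 4 kept a log2 fold change of 0.45 to 1.02 at 48 hpf, where tmppe was at 0.07. Within the 4 genes, clstn3 and ush1c were the most alike (0.88), and phka1b and tmppe the least (1.79).

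The other calsyntenin genes were not called at either stage. At 24 hpf clstn1 averaged 148 ± 10.2 CPM in mutants and 144 ± 19.4 CPM in siblings (SD, n = 4 each), and clstn2 4.70 ± 1.06 CPM in mutants and 4.36 ± 0.484 CPM in siblings. Their log2 fold changes were 0.04 ± 0.09 and 0.11 ± 0.18 at 24 hpf (adjusted p = 0.910 and 0.860) and -0.23 ± 0.11 and -0.27 ± 0.19 at 48 hpf (adjusted p = 0.257 and 0.523), by edgeR's quasi-likelihood test. In the list of calsyntenins and synaptic adhesion genes, such as neurexins and neuroligins, 0 of 35 other members were called at 24 hpf, where 3.82% of all genes were. At an unadjusted p under 0.05 there were 2, and DESeq2 and limma-voom called 0. The median of the list was 0.04 there, against -0.0028 over all genes. At 48 hpf 2 of 35 were called lower by edgeR, against 1.80% of all genes. They were the neurexin gene nrxn2a (-0.50 ± 0.11, adjusted p = 0.0122) and the kinesin light chain gene klc1a (-0.36 ± 0.10, adjusted p = 0.0467). The call of nrxn2a was lost without mutant replicate 1 or 2 or sibling replicate 1 of 48 hpf (adjusted p-values from 2.83e-04 to 0.0707 over all alternatives). That of klc1a was lost without any 1 of the 48 hpf libraries, and without sibling replicate 1, 3 or 4 of 24 hpf (from 0.00531 to 0.193). The list median at 48 hpf was -0.23, against -0.0046 over all genes.

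No partner of harmonin in the Usher complex was called. Of 13 other tested genes of the Usher complex, 0 were called in either direction at 24 hpf, at 48 hpf or for the difference between stages, by edgeR's quasi-likelihood test, against 3.82%, 6.06% and 3.17% of all genes, so a count of 0 among 13 is near the background. At an unadjusted p under 0.05 there were 0 at 24 hpf, 2 at 48 hpf and 1 for the difference. DESeq2 called 0, 1 and 1 in the same order, and limma-voom 0, 1 and 0. The motor gene myo7aa averaged 16.6 ± 0.722 CPM in mutants and 17.2 ± 1.64 CPM in siblings at 24 hpf, and 18.0 ± 2.97 CPM in mutants and 15.9 ± 0.146 CPM in siblings at 48 hpf. The scaffold gene ush1ga, at under 2 CPM in every group mean, had a log2 fold change of 0.76 ± 0.45 at 24 hpf and -1.26 ± 0.50 at 48 hpf (adjusted p = 0.448 and 0.183). The gut partner anks4b had 0.33 ± 0.39 and -0.16 ± 0.43 (adjusted p = 0.774 and 0.897). Among 13 other brush border genes, 1 was called higher (eps8l3b) and 1 lower (eps8a, -0.61 ± 0.13, adjusted p = 0.0108) at 24 hpf, where 1.50% of all genes were higher and 2.33% lower. At 48 hpf 2 were called higher, against 4.26% of all genes. The genes called at 48 hpf were eps8l3b and eps8l3a, members of the Eps8 family of actin regulators. The gene eps8l3b averaged 15.6 ± 0.413 CPM in mutants and 1.89 ± 0.440 CPM in siblings at 48 hpf (n = 3 each; 3.05 ± 0.29, adjusted p = 4.54e-06). At 24 hpf it averaged 2.82 ± 0.894 CPM in mutants and 1.47 ± 0.321 CPM in siblings (n = 4 each). Its effect thus grew between stages (difference 2.11 ± 0.37, adjusted p = 0.00393), where that of ush1c was smaller at the later stage. Its call at 24 hpf (0.94 ± 0.25, adjusted p = 0.0447) was lost without mutant replicate 1, 2 or 3 or sibling replicate 2, 3 or 4 of 24 hpf, or without any 1 mutant of 48 hpf (range 0.00817 to 0.135).

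Harmonin is used in hair cells and enterocytes. In both marker lists 1 or 2 genes made most of the difference in summed level, and all sums without leading genes, here and for other lists, were chosen after the values were seen. The genes left out had the largest difference of group means in the direction of the sum, which by itself moves the remainder the other way. The summed level of 19 hair cell markers ranged from 205 to 244 CPM in mutants and from 300.5 to 382 CPM in siblings at 24 hpf. Of the difference of -105 CPM between the means, -101 CPM came from pvalb9, a parvalbumin gene. Without it the ranges overlapped, 83.0 to 84.5 CPM in mutants and 79.9 to 92.8 CPM in siblings. With all markers they overlapped at 48 hpf, 230 to 267 CPM in mutants and 228 to 329 CPM in siblings. For 15 enterocyte markers the ranges were 294 to 346 CPM in mutants and 434 to 444 CPM in siblings at 24 hpf, and 249 to 256 CPM in mutants and 150 to 172 CPM in siblings at 48 hpf. At 24 hpf fabp2 and cdh17 gave -114 of the -116 CPM between the means, and without them the ranges overlapped, 38.8 to 55.4 CPM in mutants and 44.8 to 56.2 CPM in siblings. At 48 hpf tm4sf4 gave 63.9 of the 87.9 CPM, and without it the ranges overlapped, 162 to 203 CPM in mutants and 148 to 171 CPM in siblings. No marker of either list had 0 counts in a whole group, except 1 enterocyte marker in siblings at 48 hpf. By member, 1 of 19 tested hair cell markers was called lower at 24 hpf (pvalb9, -0.77 ± 0.17), against 2.33% of all genes. At 48 hpf 2 were called higher (atoh1a, 0.82 ± 0.21, and atoh1b, 0.61 ± 0.17), against 4.26% of all genes. All 3 calls were lost when single libraries were left out, with adjusted p-values of up to 0.0571, 0.0957 and 0.157. Of 14 tested enterocyte markers 1 was called higher and 4 lower at 24 hpf, and 3 higher and 1 lower at 48 hpf, against 1.50% and 2.33% of all genes at 24 hpf and 4.26% and 1.80% at 48 hpf. Leaving out single libraries gave 1 to 4 lower at 24 hpf and 2 to 3 higher at 48 hpf. At 24 hpf the call of fabp2 was lost without any 1 library of that stage (adjusted p-values of up to 0.155). That of cdh17 was lost without mutant replicate 1, 2 or 4 or sibling replicate 2, 3 or 4 (up to 0.146), and its call at 48 hpf without mutant replicate 1 or 3 or sibling replicate 3 (up to 0.0743). From the enterocyte list, tm4sf4 was higher at both stages by edgeR's quasi-likelihood test (3.12 ± 0.45 and 5.55 ± 0.56, adjusted p = 4.21e-04 and 8.41e-06). By the same test the retinol-binding gene rbp2a was lower at both (-1.41 ± 0.27 and -2.23 ± 0.32, adjusted p = 0.00555 and 2.74e-04). The part of both cell types in the values of ush1c was not tested, nor was whether the enterocyte list marks enterocytes at these ages.

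The other subunits of phosphorylase kinase were not called in the comparisons of mutants and siblings. The second alpha subunit gene phka2, the form of liver in mammals, averaged 5.03 ± 0.490 CPM in mutants and 3.52 ± 0.793 CPM in siblings at 24 hpf, and 30.2 ± 4.75 CPM in mutants and 36.8 ± 7.47 CPM in siblings at 48 hpf. Its log2 fold changes, 0.51 ± 0.18 and -0.28 ± 0.18, had the signs of those of phka1b, with adjusted p = 0.130 and 0.467. The beta subunit gene phkb had 0.11 ± 0.09 and -0.31 ± 0.10 (adjusted p = 0.668 and 0.106). The gamma subunit genes phkg1a, phkg1b and phkg2 had adjusted p-values of 0.354 to 0.988. Between stages, averaged over genotypes, all 5 rose by 0.41 to 2.99 on the log2 scale, phka2 by the most (adjusted p = 3.60e-12).

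**Figure D5:**
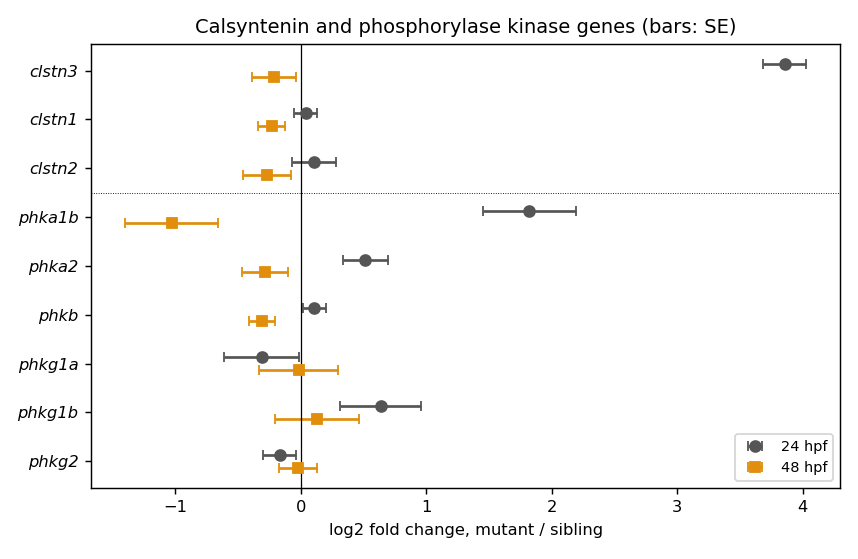
Log2 fold change of mutants against siblings at 24 hpf (grey circles) and 48 hpf (orange squares) for the calsyntenin genes (above the dotted line) and the phosphorylase kinase subunit genes (below it); bars are the SE of the fit. Only clstn3 and phka1b stand beyond 1 at 24 hpf; phka2 lies at 0.51 and -0.28.

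Among 35 other genes of glycogen metabolism, 1 was called higher and 1 lower at 24 hpf, 2 higher and 1 lower at 48 hpf, and 3 higher for the difference between stages. Of all genes 3.82% were called at 24 hpf and 6.06% at 48 hpf, so the counts at these stages are near the background. For the difference 2.43% of all genes were called higher. Leaving out single libraries gave 0 to 1 higher and 1 to 2 lower at 24 hpf, and 2 to 4 higher and 0 to 2 lower at 48 hpf. For the difference it gave 3 to 5 higher and 0 to 3 lower. The calls of pgm1 at 24 hpf (0.44 ± 0.11, adjusted p = 0.0340) and slc37a4b at 48 hpf (-0.77 ± 0.17, adjusted p = 0.00994) were lost, pgm1 without any 1 mutant or sibling replicate 1, 2 or 3 of that stage and slc37a4b without mutant replicate 1, with adjusted p-values of up to 0.107 and 0.0674. The liver glycogen phosphorylase gene pygl, whose product is the substrate of the kinase, averaged 84.8 ± 15.9 CPM in mutants and 25.1 ± 2.21 CPM in siblings at 48 hpf (1.76 ± 0.17, adjusted p = 5.01e-06). At 24 hpf it averaged 6.21 ± 1.02 CPM in mutants and 5.46 ± 0.961 CPM in siblings, and the difference between stages was 1.57 ± 0.23 (adjusted p = 8.38e-04), opposite in sign to that of phka1b. The glucose-6-phosphatase gene g6pca.1 was higher in mutants at 48 hpf (1.84 ± 0.34, adjusted p = 0.00272). The muscle phosphorylase gene pygma was not called at either stage (0.17 ± 0.14 and 0.07 ± 0.16, adjusted p = 0.636 and 0.875).

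The summed level of skeletal muscle markers, of the tissue that uses PHKA1 in mammals, was lower in all mutants than in all siblings at 48 hpf. Over 20 genes, of which atp2a1 gave -5480 of the -21900 CPM between the 48 hpf means, it ranged from 60410 to 68530 CPM in mutants and from 78080 to 98700 CPM in siblings at 48 hpf, and at 24 hpf from 18530 to 21900 CPM in mutants and from 18240 to 24980 CPM in siblings. By member, 3 of 20 were called lower at 48 hpf, against 1.80% of all genes. They were acta1b (-0.95 ± 0.15), acta1a (-0.54 ± 0.10) and atp2a1 (-0.68 ± 0.13), with adjusted p-values of at most 0.00239 by edgeR. At 24 hpf 0 of 20 were called by edgeR, DESeq2 or limma-voom (2 at an unadjusted p under 0.05). Of all genes 3.82% were called there by edgeR, so 0 of 20 is near the background. For 19 neuron markers the summed level ranged from 2660 to 2789 CPM in mutants and from 2649 to 3162 CPM in siblings at 48 hpf, with 1 marker called higher and 4 lower, against 4.26% and 1.80% of all genes. Leaving out single libraries gave 0 to 5 neuron markers lower, and without mutant replicate 3 of 48 hpf the calls of stmn2a, stmn2b and tubb5 were all lost (adjusted p = 0.0758, 0.0684 and 0.0544). At 24 hpf the neuron sum ranged from 1007 to 1078 CPM in mutants and from 889 to 1095 CPM in siblings. The mean was 20.6 CPM higher in mutants, to which elavl3 and nefma gave 90.4 CPM. These genes were left out because they were the most in excess in mutants, so a lower mutant remainder follows from the choice. As a description and no result, without these genes the sum was 629 to 653 CPM in mutants and 670 to 755 CPM in siblings. Without elavl3 alone the ranges overlapped, 644 to 687 CPM in mutants and 673 to 761 CPM in siblings. At that stage 1 neuron marker was called higher and 1 lower by edgeR, against 1.50% and 2.33% of all genes. They were nefma (2.67 ± 0.27, adjusted p = 7.33e-06) and tubb5 (-0.37 ± 0.07, adjusted p = 0.00693). The call of tubb5 was lost with library size only (0.0576). The marker called higher at 48 hpf was also nefma (1.305 ± 0.279, adjusted p = 0.00778).

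The summed level of photoreceptor markers was lower in all mutants than all siblings at 48 hpf, as were phka1b and 10.6% of genes tested. It ranged, over 19 genes, from 11.9 to 14.1 CPM in mutants and from 7.33 to 11.4 CPM in siblings at 24 hpf, and from 45.9 to 61.2 CPM in mutants and from 124 to 187 CPM in siblings at 48 hpf. At 24 hpf the opsin gene opn1sw2 gave 1.63 of the 3.44 CPM between the means, and without it the ranges overlapped, 10.3 to 11.4 CPM in mutants and 6.77 to 10.9 CPM in siblings. At 48 hpf otx5 and crx gave -84.0 of the -98.8 CPM, and without them the sums still stood apart, 12.3 to 14.4 CPM in mutants and 21.6 to 35.7 CPM in siblings. Of 14 tested, 0 were called at 24 hpf by edgeR, against 3.82% of all genes, so this is near the background. At an unadjusted p under 0.05 there were 2, and DESeq2 called 0 and limma-voom 1. At 48 hpf 5 were called lower by edgeR (3 to 6 when single libraries were left out), against 1.80% of all genes. For the difference between stages 3 were called lower by edgeR, against 0.737% of all genes. They were the transcription factor genes crx (-2.51 ± 0.36, adjusted p = 7.17e-04) and otx5 (-1.79 ± 0.38, adjusted p = 0.0134) and the arrestin gene sagb (-2.04 ± 0.47, adjusted p = 0.0248). The call of crx was lost with limma-voom (0.0618; range from 5.80e-09). That of sagb was lost without mutant replicate 3 at 24 hpf (0.0510), or without mutant replicate 1 (0.0559) or 3 (0.0624) or sibling replicate 2 (0.0761) at 48 hpf (range from 0.00128). Between 0 and 2 of the 19 markers had 0 counts in a whole group. The part of muscle, neuron and photoreceptor RNA in the values of phka1b was not tested.

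Of 18 yolk syncytial layer markers, 17 were tested, with 1 called higher and 7 lower at 24 hpf, 5 higher and 3 lower at 48 hpf, and 6 higher and 2 lower for the difference between stages. Of all genes 1.50% were higher and 2.33% lower at 24 hpf, 4.26% and 1.80% at 48 hpf, and 2.43% and 0.737% for the difference. Their summed level ranged from 15510 to 18470 CPM in mutants and from 21820 to 24230 CPM in siblings at 24 hpf, and from 15190 to 19710 CPM in mutants and from 13850 to 17300 CPM in siblings at 48 hpf. This was lower in 24 hpf mutants, where the 4 genes were higher, and its part in their values was not tested.

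Among 16 other genes of the metallophosphoesterase list, 2 were called lower at 24 hpf (cpped1 and acp5a), against 2.33% of all genes. At 48 hpf 2 were called higher (acp5a and acp5b) and 1 lower (smpdl3b), against 4.26% and 1.80% of all genes. Leaving out single libraries gave 0 to 2 lower at 24 hpf, and 1 to 2 higher and 0 to 1 lower at 48 hpf. The summed level of the 16 genes ranged from 292 to 344 CPM in mutants and from 430 to 463 CPM in siblings at 24 hpf. At 48 hpf it ranged from 281.5 to 310 CPM in mutants and from 216 to 256 CPM in siblings. The part of single genes in these sums was not tested. The call of cpped1 was lost without mutant replicate 3 or 4 of 24 hpf (adjusted p-values of up to 0.0654). That of smpdl3b was lost without mutant replicate 1 or 3 or sibling replicate 2 of 48 hpf (up to 0.0843), and that of acp5b without any 1 mutant of either stage, sibling replicate 1 or 4 of 24 hpf or sibling replicate 2 or 3 of 48 hpf (up to 0.155). The closest by domain, mppe1, which trims lipid anchors of cell surface proteins, averaged 10.6 ± 0.360 CPM in mutants and 10.1 ± 0.994 CPM in siblings at 24 hpf (0.07 ± 0.14, adjusted p = 0.892). At 48 hpf it averaged 6.87 ± 0.338 CPM in mutants and 5.83 ± 1.13 CPM in siblings (0.24 ± 0.16, adjusted p = 0.488). By edgeR the phosphatase gene acp5a was lower in mutants at 24 hpf (-0.84 ± 0.19, adjusted p = 0.0191) and higher at 48 hpf (1.41 ± 0.23, adjusted p = 7.04e-04). Its difference between stages (2.25 ± 0.29, adjusted p = 3.09e-04) was opposite in sign to that of tmppe, for which tmppe was chosen. The call of acp5a at 24 hpf was lost without mutant replicate 1 (0.0712), 3 (0.0556) or 4 (0.0564) or sibling replicate 2 (0.0548, range from 1.45e-04). The lysosomal galactosidase gene glb1, which overlaps TMPPE in the human genome, was not called (0.02 ± 0.13 and 0.44 ± 0.15, adjusted p = 0.977 and 0.101).

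None of the 4 genes lies on the chromosome of mttp in RefSeq's table of the assembly GRCz12tu, which was used for gene order only. Of the 2 nearest genes on each side, 14 of 16 were matched to a row of counts, and all 14 passed the low-count filter. One of them, si:dkey-22f5.9 beside phka1b, had 0 counts in both groups at 24 hpf, and its effects are not given. None of the other 13 was called higher in the mutants at either stage. Of all genes 1.50% were called higher at 24 hpf and 4.26% at 48 hpf, so this is near the background. The genes beside clstn3, cdca3, pex5 and lpcat3, had log2 fold changes from -0.21 to -0.03 at 24 hpf (adjusted p-values of 0.507 to 0.920). A long noncoding RNA, LOC141378178, overlaps clstn3 in that table and has no row of its own. The library kit does not mark the strand, so reads of the 2 genes could not be told apart where they overlap. Beside ush1c, stra6, a retinol transporter, was lower at 24 hpf (-0.43 ± 0.10, adjusted p = 0.0192), and beside tmppe exosc6, of the RNA exosome, was lower at 24 hpf (-1.03 ± 0.24, adjusted p = 0.0212) and the G protein gene gnao1b at 48 hpf (-0.57 ± 0.16, adjusted p = 0.0366). Of all genes 2.33% were called lower at 24 hpf and 1.80% at 48 hpf. The calls of stra6, exosc6 and gnao1b were lost when single libraries of the stage were left out. For stra6 these were mutant replicate 2, 3 or 4 or sibling replicate 3 (adjusted p-values from 0.00174 to 0.0992 over all alternatives). For exosc6 they were mutant replicate 1, 3 or 4 or sibling replicate 2 (from 6.09e-04 to 0.0887), and for gnao1b any mutant or sibling replicate 1 or 2 (from 0.00692 to 0.182). Beside phka1b, rab38c and clcn5a were not called (-0.31 ± 0.22 and 0.01 ± 0.11 at 24 hpf, adjusted p = 0.555 and 0.977).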

How the data were processed

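RNA of whole zebrafish embryos was sequenced in 14 libraries, and the authors deposited a table of unnormalized counts of reads by gene. The submitters' processing notes name STAR 2.7.10b with featureCounts 2.0.6, Trim Galore 0.6.10, FastQC 0.12.1 and the build GRCz11. No source used here gives the annotation, the strand setting or how multimapping reads were treated.

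From these counts edgeR 4.0.16 (R 4.3.3) fitted quasi-likelihood models to all 14 libraries as 4 groups, with TMM factors and filterByExpr at a minimum count of 10. It kept 24424 genes, and p-values were adjusted over all of them by Benjamini-Hochberg. CPM use TMM factors, log2 CPM a prior count of 2, and the SE is the log2 fold change over the root of F. Nothing in the labels says that replicates came from separate clutches, so p-values measure the spread between these libraries, which may be technical. The fit was tested on simulated data. Replicates of a group differed by more than counting noise (chi-square per degree of freedom at least 9.74).

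The members and lists were chosen with earlier results of these data known. The genes named by rule besides the members were the 4 nearest profiles of each, 2 neighbours on each side, paralogues, up to 4 called genes per list and comparison, and the 8 that led the ranking. Genes that led a summed level, and others such as myo7aa, ush1ga, anks4b, pygma and glb1, were named outside these rules. Listed names were matched exactly or through RefSeq synonyms. Alternatives were DESeq2 1.42.0, limma-voom (limma 3.58.1), RLE factors, library size only, no filter, a filter requiring 1 CPM in at least 3 libraries, each library left out, a replicate block, single stages, and leaving out both libraries of low mitochondrial share.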

Additional observations from a re-analysis of the deposited data

Results flagged for a closer look

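The gene phka1b moved in opposite directions at the 2 stages, above all siblings in every mutant library at 24 hpf and below all siblings in every mutant library at 48 hpf, a difference of -2.85 on the log2 scale. That difference chose the gene, so its call for the difference is no result. The lower mutant level of phka1b at 48 hpf was not called by edgeR. No library of a 24 hpf group stood far from the others for any of the 4 genes by Dixon's criterion, and groups of 3 were not tested. For tmppe, mutant replicate 1 at 24 hpf was still the highest, at 33.2 CPM against 18.6 to 21.9 CPM in the other mutants.

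In the genes of the lists, the mutant effect differed between stages (48 minus 24 hpf, log2 scale, edgeR's quasi-likelihood test with adjustment over all genes) for 16 named genes, of which 5 had a lower effect at 48 hpf. Those 5 were crx (-2.51), sagb (-2.04), otx5 (-1.79), apobb.2 (-1.45) and tfa (-0.96). The calls of crx, sagb, apobb.2 and tfa were each lost under at least 1 alternative, and apobb.2 may share reads with its close paralogue apobb.1. A higher effect at 48 hpf was found for eps8l3b (2.11) and, from the enterocyte list, fabp2 (1.41) and cdh17 (0.82). It was also found for the yolk syncytial layer genes ctsla (2.07), apoeb (1.13), apoc2 (1.06) and apoa1a (0.69). The same held for the glycogen genes pygl (1.57), slc37a4a (1.28) and ppp1r3ab (0.81), and for the phosphatase gene acp5a (2.25).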

How the results depend on the processing

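Each of the 4 members kept its direction under the 22 or 23 alternatives for both mutant effects, their difference and the averaged stage change, except tmppe at 48 hpf, whose value near 0 ranged from -0.033 (without mutant replicate 2) to 0.194 when single libraries were left out. Only ush1c moved by more than the spread between replicates. Its effect at 48 hpf was 2.22, and its difference between stages -1.92, without both libraries of low mitochondrial share. When single libraries were left out these values ranged from 1.32 to 2.25 and from -2.82 to -1.89. The 4 calls of the averaged stage change held under all 22 alternatives.

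Counts over the whole table moved more. At 24 hpf 366 genes were higher and 568 lower, with DESeq2 626 and 995, and with library size only 550 and 313, a scaling under which the median gene shifted by 0.10 (log2). A replicate block gave 869 lower genes and the libraries of the stage alone 853. At 48 hpf 1040 were higher and 440 lower. The lower count was 843 with DESeq2, 735 with limma-voom and 701 when both low-mitochondrial libraries were left out, and the higher count 615 with the libraries of the stage alone. For the difference between stages 594 were higher and 180 lower, with lower counts of 504 (DESeq2), 281 (CPM filter), 310 (replicate block) and 481 (without both libraries). Leaving out single libraries gave 263 to 613 higher and 258 to 1114 lower genes at 24 hpf, 207 to 502 lower at 48 hpf, and 342 to 1053 higher and 88 to 375 lower for the difference. The cause was not tested. The libraries of a stage alone give neither a difference between stages nor a stage change.

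Same-numbered mutants and siblings of a stage deviated together with correlations of 0.07 to 0.31, each above those with other numbers. A pairing by number was therefore not excluded, although no label used here states one. Because not all correlations were above 0.1, the main fit had no block, and its p-values ignore any such pairing. With the block the member effects at 24 hpf were 3.84 (clstn3), 4.16 (ush1c), 1.86 (phka1b) and 2.81 (tmppe), and the table-wide counts that moved are given above. Of 70 calls of list genes and neighbours, 28 were lost under at least 1 alternative and 0 changed direction. The low counts of ush1c and phka1b in 24 hpf siblings limit the precision of their effects.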
